A study of Arabidopsis thaliana with 4 samples.

Results

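ARGONAUTE7, AGO7 (AT1G69440), is a small RNA effector of plants, and the only gene of the core small RNA families analysed here with a probe of its own. The members were to be the genes whose symbols are AGO, DCL or RDR followed by a number, or SGS3, each with a probe that lists that gene alone and with values on all 4 arrays. The gene table holds 17 such symbols, and 1 of them, AGO7, met the rule among 5386 genes that did so in the whole series. AGO7 was chosen by its log2 ratios on these same 4 arrays and by its call in an earlier fit of them, so its values below are a description.

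RNA from pistillata inflorescences was set against RNA from wild-type inflorescences on 4 spotted oligonucleotide arrays of Arabidopsis thaliana, each carrying both genotypes in its 2 channels. PISTILLATA is a MADS-box factor of the floral B class, needed for petals and stamens, both of which the mutant's flowers lack. The sources used here do not state the allele, the accession or the age of the plants, and no label says whether the arrays hold separately grown material, so every spread below is a spread between arrays, which may be technical. By the labels, pistillata RNA was in channel 1 on arrays 1 and 3, whereas arrays 2 and 4 had it in channel 2. The values are log2 ratios, with no signal strengths, so AGO7's level above background is unknown, and their number, 4, limits the precision.

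Small RNAs silence genes by base pairing. Dicer-like (DCL) enzymes cut them from double-stranded RNA, RNA-dependent RNA polymerases (RDR) make that double-stranded RNA, SGS3 protects the template, and ARGONAUTE (AGO) proteins carry the small RNA to its target. AGO7, also named ZIPPY, binds the microRNA miR390 almost exclusively and cleaves the TAS3 transcripts. The fragments are turned by SGS3, RDR6 and DCL4 into trans-acting siRNAs that lower the auxin response factors ARF2, ETTIN (ARF3) and ARF4. In Arabidopsis, loss of AGO7 is known for an early change from juvenile to adult leaves, and ETTIN is known for patterning the gynoecium.

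As deposited, AGO7 had log2 ratios of -0.42 and -0.57 on arrays 1 and 4, and of 0.60 and 0.62 on arrays 2 and 3. The sign was negative on arrays 1 and 4 and positive on arrays 2 and 3. Genes of the anther, a part of the stamen, served to fix the sign: the sugar transporter SWEET8, the spermidine acyltransferase SHT, the anther protein ATA20 and the pollen tubulin TUA1. Their median was 2.91 and 3.72 on arrays 1 and 4, and -2.77 and -3.15 on arrays 2 and 3, before any turning. On each array all 4 anther genes had the sign opposite to that of AGO7, which holds whichever way the arrays are turned. This is not particular to AGO7, since the median of all genes tested lay on its side of 0 on each array. In size that median was 0.15, 0.15, 0.14 and 0.10 on arrays 1 to 4.

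**Figure D1:**
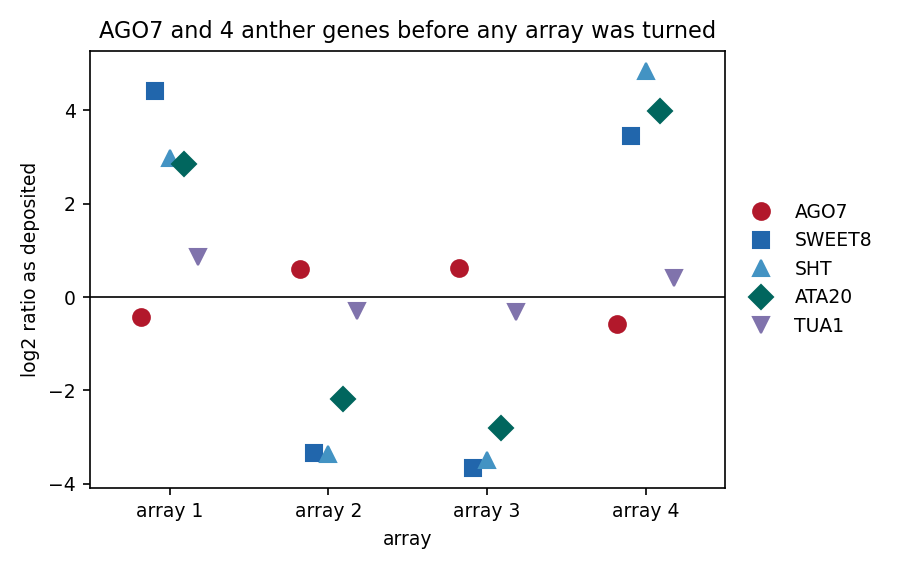
Log2 ratios as deposited (vertical axis) of AGO7 and the anther genes SWEET8, SHT, ATA20 and TUA1 on each of the 4 arrays (horizontal axis), 1 point for each gene and array. AGO7 is below 0 on arrays 1 and 4 and above 0 on arrays 2 and 3, on the other side of 0 from all 4 anther genes each time.

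The labels' channel order does not describe this pattern. Over 26156 gene probes as deposited, Pearson's r was -0.29 for arrays 1 and 3 and -0.05 for arrays 2 and 4, the pairs that share a labelled order. It was 0.49 for arrays 1 and 4 and 0.65 for arrays 2 and 3. Over the 25018 probes with no capped value, r was -0.68 for each pair that shares a labelled order, 0.71 for arrays 1 and 4 and 0.77 for arrays 2 and 3. Probes are not independent replicates, so these values only describe the arrays. Arrays 1 and 4 were therefore multiplied by -1, which puts the anther genes on the wild-type side and makes each value the log2 ratio of pistillata to wild type, in what is the likely direction. The direction is not settled by the labels. With the sign of every array exchanged, AGO7's mean log2 ratio would be -0.55. By the labels' channel order the values of AGO7 would be -0.42, -0.60, 0.62 and 0.57 on arrays 1 to 4, with a mean of 0.040.

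In the likely direction AGO7 transcripts were more abundant in pistillata inflorescences than in wild-type inflorescences on every array. Its log2 ratios were 0.42, 0.60, 0.62 and 0.57 on arrays 1 to 4. Array 1 was the lowest and the other 3 lay close together. The mean log2 ratio was 0.55 ± 0.09 (SD, n = 4), a 1.47-fold higher amount in pistillata. By array the fold was 1.34, 1.52, 1.53 and 1.48 on arrays 1 to 4. In whole inflorescences a change in the number of cells of a type and a change in RNA per cell cannot be told apart.

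Most genes of the array also lay slightly above 0. The median of the mean log2 ratios of all 5386 genes was 0.16. Centring each array on its median, taken over all its gene probes and not only these genes, lowered it to 0.05. AGO7 stood 0.39 above the median of all genes, a 1.31-fold difference. On single arrays its log2 ratio exceeded the median of the genes tested by 0.28, 0.45, 0.47 and 0.47 on arrays 1 to 4. The shares of tested genes that lay below AGO7 were 69.4%, 86.9%, 88.3% and 86.7%, again for arrays 1 to 4. AGO7 was therefore in the upper part of the ratios on each array, and least so on array 1.

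Split by the direction in which the arrays ran, the mean log2 ratio of AGO7 was 0.50 on arrays 1 and 4 and 0.61 on arrays 2 and 3. Split by array number it was 0.51 on arrays 1 and 2 and 0.59 on arrays 3 and 4. Each of these pairs has 2 arrays and no test was made between them. AGO7 was positive in all of them, which follows from its positive value on every array.

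The ratio of AGO7 was moderate and its spread small. By mean log2 ratio AGO7 ranked 637 from the top of the 5386 genes, with 88.2% of genes below it. By SD it ranked 161 from the smallest, with 2.97% of genes less variable, and the median SD of all genes was 0.29. Genes with a mean log2 ratio within 0.05 of that of AGO7 numbered 244, and their SDs ran from 0.04 to 5.50 with a median of 0.33. A call at this ratio needs a small SD, so the small spread of AGO7 goes with the call by which it was chosen.

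The fit across all genes (limma with Benjamini-Hochberg adjustment, threshold 0.05) called 148 genes higher in pistillata, which is 2.75% of those tested, and 312 lower, 5.79%. With each array centred on its median the counts were 76 higher and 353 lower, and with trended and robust variance moderation they were 0 higher and 311 lower, with limma's unadjusted p under 0.05 for 1278 higher genes. AGO7 was 1 of the 148, with an adjusted p of 0.0331 by limma and a 95% interval of its log2 ratio from 0.31 to 0.80. It was picked with that call known, so 1 call of 1 member is read here as nothing more than where the gene stands. Among the 148 it ranked 133 by mean log2 ratio, where the lowest was 0.48 and the median 0.75. Of the 636 genes with a larger mean log2 ratio than AGO7, 132 were called and 504 were not. Of the 244 genes of like ratio, 24 were called, and the largest SD among those 24 was 0.19.

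**Figure D2:**
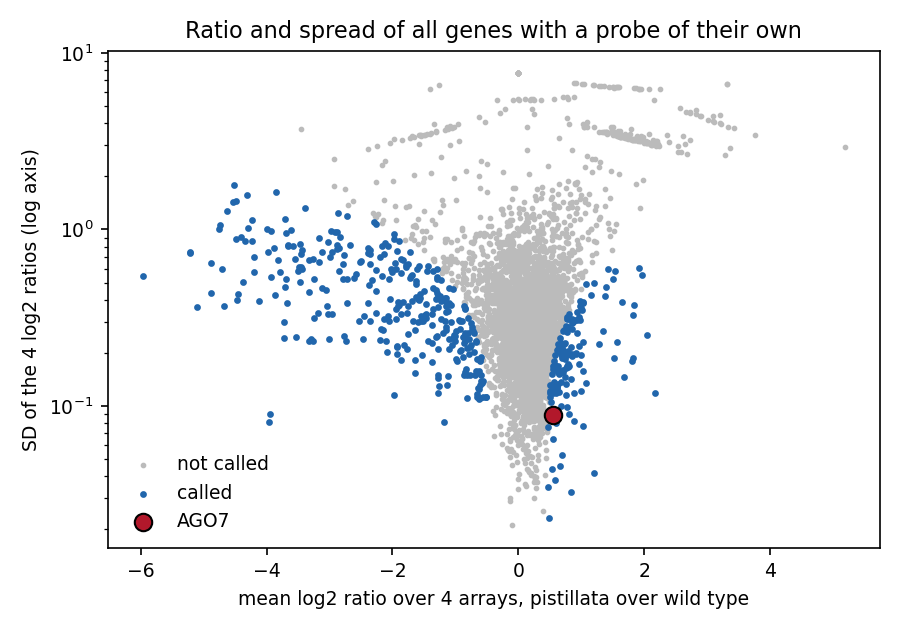
Mean log2 ratio over 4 arrays, pistillata over wild type as turned (horizontal axis), against the SD of the 4 ratios (vertical log axis), 1 point for each of 5386 genes. Blue points passed limma's adjusted p of 0.05, and AGO7 (red) lies at 0.55 with an SD of 0.09, near the inner edge of the genes called higher.

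The call of AGO7 depended on the setting. With each array centred on its median, the log2 ratio of AGO7 was 0.44 and its limma adjusted p 0.0631. Leaving out arrays 1, 2, 3 and 4 in turn gave log2 ratios of 0.60, 0.54, 0.53 and 0.55, with limma adjusted p of 0.0693, 0.167, 0.144 and 0.108, so no set of 3 arrays called it. Over all genes, limma then called 43, 21, 19 and 33 higher, 0.798%, 0.39%, 0.353% and 0.613% of those tested. With all 4 arrays the share was 2.75%. The distance of AGO7 above the median of all genes or probes was between 0.37 and 0.44 in the 13 alternatives that kept the turning of the arrays. Centring, trended and robust moderation, the threshold of 0.01 and averaging in pairs could not change this distance, which was 0.39 in each.

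**Figure D3:**
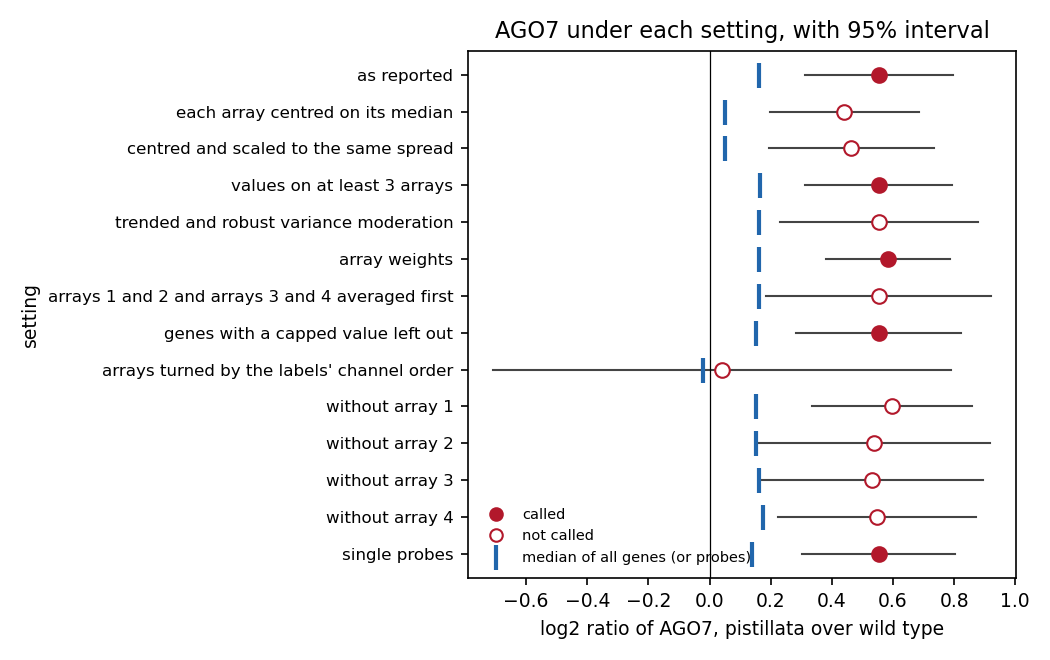
Log2 ratio of AGO7, pistillata over wild type (horizontal axis), with its 95% interval under each setting (vertical axis), filled where the limma adjusted p was under 0.05 and open where it was not. Blue ticks give the median of all genes, or of all probes for single probes. Apart from the turning by the labels' channel order, at 0.040, the ratio lies between 0.44 and 0.60.

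Of the other 16 symbols of the rule, SGS3, RDR6 and DCL4 act in the AGO7 pathway described above. None of the 16 is analysed here, since the platform annotation used here lists none of them on a probe. They are AGO1, the main carrier of microRNAs, and AGO2, AGO3, AGO4, AGO5, AGO6, AGO9 and AGO10, of which AGO4, AGO6 and AGO9 act with heterochromatic siRNAs and AGO10 keeps miR165 and miR166 from AGO1 in the shoot meristem. They further include DCL1, which makes microRNAs, DCL2, DCL3 and DCL4, which make siRNAs, the polymerases RDR1, RDR2 and RDR6, and SGS3. Of the 3 auxin response factors that the trans-acting siRNAs target, 0 had a probe of their own. These values therefore say nothing about the rest of the AGO7 pathway in these inflorescences.

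Around AGO7, 104 genes in 4 lists describe small RNA processing, trans-acting siRNAs and silencing, RNA-directed DNA methylation and the maintenance of DNA methylation. Of these, 7 were tested, limma called 0, and an unadjusted p under 0.05 was found for 2, shares to set beside 8.54% and 30.8% of all genes. Their median log2 ratio was 0.13, against 0.16 for all genes.

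The microRNA and siRNA processing list had 4 of its 32 genes tested, with a median log2 ratio of 0.06. SE (SERRATE), a zinc finger protein that helps DCL1 cut microRNA precursors, had log2 ratios of -0.23, 0.16, -0.05 and 0.12 on arrays 1 to 4. Its mean was 0.00 ± 0.18 (SD, n = 4; limma adjusted p = 0.993), with 2 arrays on either side of 0. SQN (SQUINT), a cyclophilin that promotes AGO1 activity, had 0.07, 0.12, 0.09 and 0.18, all above 0, with a mean of 0.11 ± 0.05 (SD, n = 4; limma adjusted p = 0.414). The SD of SQN was smaller than that of AGO7, and its mean was below the median of all genes. Another probe lists SQN among 3 genes, so its ratio cannot be assigned to SQN alone. That probe was more variable, with a mean log2 ratio of 0.09 and an SD of 0.29.

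SIC (SICKLE), a proline-rich protein needed for microRNA accumulation, had log2 ratios of 0.18, 0.19, 0.35 and -0.15 on arrays 1 to 4 (mean 0.14 ± 0.21, SD, n = 4; limma adjusted p = 0.441). Array 4 had the opposite sign to the other 3. XCT (XAP5 CIRCADIAN TIMEKEEPER), a nuclear protein of the circadian clock that also affects small RNA production, was the only one of the 7 with values below 0 on all 4 arrays, at -0.40, -0.48, -0.22 and -0.10. Its mean was -0.30 ± 0.17 (SD, n = 4; limma adjusted p = 0.152), and its unadjusted p was 0.0437 by limma.

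The RNA-directed DNA methylation list had 2 of 34 genes tested. The gene AT1G05490, symbol chr31 and also known as CLASSY3, encodes a chromatin remodeller of the group that brings RNA polymerase IV to its loci. Its log2 ratios were 0.68, 0.41, 0.43 and 1.14 on arrays 1 to 4, all above 0, with array 4 the highest. The mean, 0.66 ± 0.34 (SD, n = 4), was the highest of the 7 and above that of AGO7, but it did not pass (limma adjusted p = 0.0744). Without genes that have a capped value in the fit, its limma adjusted p was 0.0384. Another probe lists CLASSY3 together with CLSY4, so its ratio cannot be assigned to either gene alone. That probe was lower and more variable, with a mean log2 ratio of 0.20 and an SD of 0.56, and limma did not call it. UBP26, a ubiquitin protease that acts on histone H2B, had 0.78, 0.04, 0.07 and 0.36, with arrays 2 and 3 near 0 and a mean of 0.31 ± 0.34 (SD, n = 4; limma adjusted p = 0.249).

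The maintenance list had 1 of 19 genes tested. DME (DEMETER), a DNA glycosylase that removes methylated cytosine, was measured by 2 probes, with mean log2 ratios of 0.33, 0.15, -0.04 and 0.08 on arrays 1 to 4. Its mean over the arrays was 0.13 ± 0.16 (SD, n = 4; limma adjusted p = 0.428), with array 3 just below 0. The list of trans-acting siRNA and silencing genes had 0 of 19 tested.

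**Figure D4:**
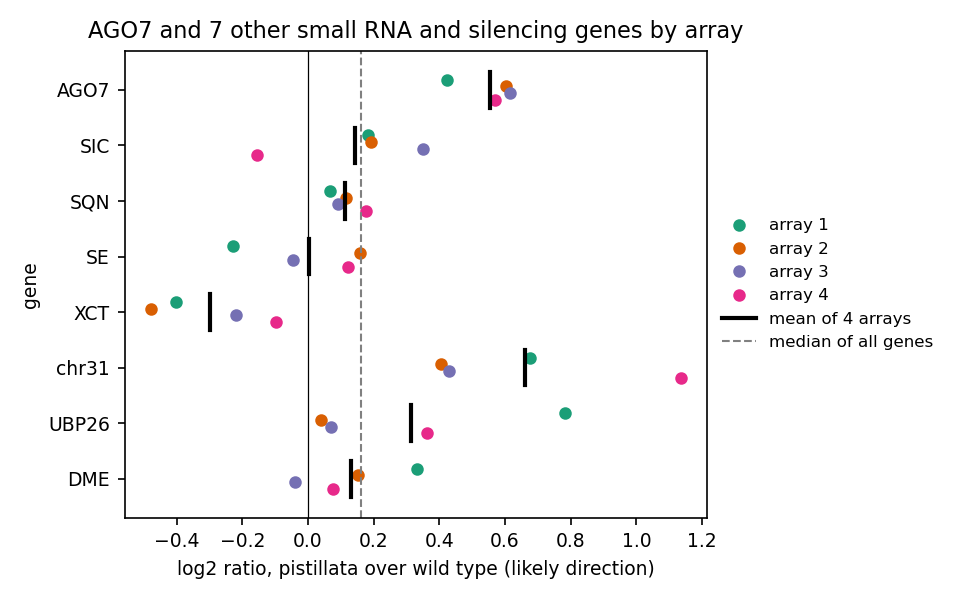
Log2 ratios of pistillata over wild type as turned (horizontal axis) for AGO7 and the 7 listed genes (vertical axis), 1 point for each array, with a bar at the mean and a dashed line at the median of all genes, 0.16. The 4 points of AGO7 lie between 0.42 and 0.62, and those of chr31 all lie above the dashed line. Those of SIC, SQN, UBP26 and DME lie on both sides of the dashed line, those of SE all lie below it, and those of XCT lie below 0.

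Set against the listed genes within each array, AGO7 had the higher log2 ratio on 4 of 4 arrays for SE, SIC, SQN, XCT and DME, on 3 of 4 for UBP26 and on 2 of 4 for chr31. The difference in log2 ratio, AGO7 minus the other gene, was 0.85 ± 0.17 for XCT and 0.55 ± 0.12 for SE (SD, n = 4 each). It was 0.44 ± 0.08 for SQN, 0.42 ± 0.24 for DME and 0.41 ± 0.22 for SIC (SD, n = 4 each). For UBP26 it was 0.24 ± 0.43, and for chr31 it was -0.11 ± 0.37, and for both genes the sign of the difference changed between arrays. No test was made, because AGO7 was chosen for its ratio.

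Probes that list a gene of these lists together with others name none of them, but they were also measured. There were 8 such probes, each listing 2 to 3 genes, with mean log2 ratios from -0.03 to 0.63 and a median of 0.09. The probe of CLASSY3 and CLSY4 and the shared probe of SQN, both described above, are among them. Limma called 0 of the 8, and 0 had an unadjusted p under 0.05, where 10.2% of all gene probes were called and their median was 0.14.

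The genes measured nearest to AGO7 on the chromosome were not called. The nearest measured loci were AT1G69420 at 0.22 ± 0.17 and AT1G69400 at 0.41 ± 0.40 on one side, and AT1G69470 at -0.14 ± 0.92 and AT1G69480 at 0.20 ± 0.21 on the other (mean log2 ratio, SD, n = 4 each). Their limma adjusted p were 0.239, 0.2, 0.814 and 0.306. AT1G69400, AT1G69420, AT1G69470 and AT1G69480 were each highest on array 1, at 0.97, 0.48, 0.89 and 0.39. AGO7 was lowest on that array.

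By Euclidean distance between the 4 log2 ratios, the 5 genes most like AGO7 were AT4G24710, AT1G07440, AT3G05080, AT2G41080 and AT3G02840. Their distances ran from 0.15 to 0.19, where the median over all genes was 1.07. AT4G24710, the closest, had log2 ratios of 0.41, 0.49, 0.62 and 0.67 on arrays 1 to 4, and AT1G07440 had 0.29, 0.67, 0.60 and 0.61. In AT4G24710, AT1G07440, AT2G41080 and AT3G02840, as in AGO7, array 1 was the lowest, and in AT3G05080 it was array 2. Picking the genes nearest to AGO7 favours a shared lowest array, so this sharing is no separate result. The likeness rests on 4 arrays of 1 comparison and describes similar ratios only.

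Genes of other tissues of the inflorescence were set beside AGO7. The tapetum genes SWEET8, SHT and ATA20 were at -3.71, -3.66 and -2.96, and they helped to set the sign. The pollen gene TUA1, which also helped to set it, was at -0.47 ± 0.26 (SD, n = 4; limma adjusted p = 0.102). AT3G25810, a terpene synthase of floral scent that had no part in setting the sign, was at -3.79 ± 0.57 (SD, n = 4; limma adjusted p = 0.00239). INO, a YABBY factor of the ovule's outer integument, was at -0.20 ± 0.18 (SD, n = 4; limma adjusted p = 0.288). The meiotic genes SPO11-2 and RCK were at 0.60 ± 0.40 and 0.52 ± 0.32 (SD, n = 4 each; limma adjusted p = 0.108 for both), with means near that of AGO7 and wider spreads. The part of tissue makeup in the ratio of AGO7 was not tested.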

How the data were processed

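The authors deposited 1 table with a log2 ratio between the channels for each probe and array, and per the labels its processing followed a published procedure. How background was corrected, what normalization was used and which channel is the numerator are not stated in the sources used here. No value exceeds 6.64 in size, which is log2 of 100, and the scale was read from that limit. Of 26933 rows, 459 empty or control spots were left out. Probes were named from the platform annotation where they list 1 gene (5784 probes), with symbols from the gene table (assembly TAIR10.1), in which 5359 of the 5386 genes tested were found. Probes of 1 gene were averaged.

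Arrays 1 and 4 were multiplied by -1, and limma version 3.58.1 in R version 4.3.3 was fitted on all genes with 4 values (intercept, eBayes, two-sided, Benjamini-Hochberg over all genes, threshold 0.05). The fit was tested on simulated data. AGO7 and the gene lists were chosen with earlier results of these data known, and 12 list symbols that the gene table lacks or shares were resolved by locus after the files were read, when ARF3 was also entered as ETT and repeated symbols of the same gene were dropped. Named are the genes of the rule, the anther genes, in each list the called genes and the 2 largest ratios in each direction, and the 5 genes most like AGO7. The neighbouring loci, the genes within 0.05 of AGO7's ratio and the probes with several genes were added after the values were seen. Alternatives were centring, scaling, values on at least 3 arrays, trended and robust moderation, array weights, an adjusted p of 0.01, averaging arrays 1 and 2 and arrays 3 and 4, leaving out genes with capped values, single probes, the labels' channel order and leaving out each array. No sequences were used here.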

Additional observations from a re-analysis of the deposited data

Results flagged for a closer look

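AT1G07440, one of the genes most like AGO7, had a log2 ratio of 0.29 on array 1, apart from its 3 other arrays. The gap to the nearest of them made up 0.831 of the distance between its lowest and highest arrays. Of 25 sets of 4 values examined, 1 was of this kind, and chance gives about 1 in 20. That rate cannot be applied to AT1G07440, which was picked for its likeness to AGO7, a gene also lowest on array 1.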

How the results depend on the processing

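AGO7 kept a positive log2 ratio in 14 of 14 alternatives. Its 4 values as turned are all positive, so with the turning kept only centring or scaling could have changed that sign. AGO7 kept its call by limma in 4: values on at least 3 arrays, array weights, capped genes left out and single probes. In the other 10 it was not called, so that 0 members were. Its log2 ratio was then 0.44 with arrays centred (limma adjusted p = 0.0631), 0.46 centred and scaled (0.0707), 0.55 with trended and robust moderation (0.0635), 0.55 at the threshold of 0.01 (0.0331), 0.55 with arrays 1 and 2 and arrays 3 and 4 averaged first (0.159), and 0.040 by the labels' channel order, where its limma adjusted p was 1. Without each array in turn it ran from 0.53 to 0.60, with 0 members called each time. The limma adjusted p ranged from 0.0146 to 0.167 over the 13 alternatives that kept the turning. Fewer arrays or averaged pairs leave fewer values in the fit. At the threshold of 0.01 the fit was unchanged, and the limma adjusted p of 0.0331 lies above that threshold. By the labels' channel order the values of AGO7, -0.42, -0.60, 0.62 and 0.57, nearly cancel. The cause of the other losses was not tested.

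Over all genes limma called 460, against 760 with array weights, 729 with capped genes left out, 164 at the threshold of 0.01, 144 with arrays averaged in pairs, 0 by the labels' channel order (18 at an unadjusted p under 0.05) and 180 to 235 without each array. With arrays centred 76 genes were higher and 353 lower, against 148 and 312 without centring. Genes called higher numbered 43, 21, 19 and 33 without arrays 1, 2, 3 and 4 in turn, and 21 with arrays averaged in pairs. With trended and robust moderation limma called 0 genes higher (1278 at an unadjusted p under 0.05) and 311 lower, so AGO7's lost call there was shared by every gene called higher without it. In the wider small RNA lists 0 genes were called in 13 of 14 alternatives and 1, chr31, with capped genes left out. No paired analysis was possible because each value already is a ratio of both genotypes within an array. The number of arrays and the lack of signal strengths limit what a ratio of this size can show.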
